A study of Homo sapiens with 4 samples.

Results

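The transcripts of the 4 ERBB receptors (EGFR, ERBB2, ERBB3 and ERBB4) and of 4 genes whose products restrain these receptors (ERRFI1, LRIG1, CBL and RNF41) were examined in parental and lapatinib-resistant breast cancer cells. The 8 genes were chosen by name, and a probe was taken for a gene when its RefSeq accession belonged to that gene. This gave 13 of the 41000 probes on the array, and 8 of the 16422 genes that could be named in this way. All 8 genes had a probe whose signal reached 100 on 1 or more arrays, which held for 12159 genes in all, and 11 of the 13 probes passed this limit. In SkBr3/Lap cells, the resistant clone of SkBr3, EGFR and ERRFI1 exceeded their parental level 2-fold or more, and ERBB2, ERBB4, LRIG1 and CBL fell short of it by as much, so that 6 of the 8 genes changed, where 27.1% of all genes did. In the resistant clone of BT474, called BT474/Lap, this held for 1 of the 8, EGFR, which was lower, where 14.3% of all genes changed.

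ERBB receptors are membrane tyrosine kinases that pair with each other when a ligand of the EGF family binds, phosphorylate their own tails and pass the signal to the RAS/ERK and PI3K/AKT pathways. ERBB2, the gene of HER2, encodes a receptor without a known ligand of its own that serves as the preferred partner of the others, and its amplification defines HER2-positive breast cancer. ERBB3 has little kinase activity and couples strongly to PI3K, so that HER2 and ERBB3 form a potent pair. Several proteins hold these receptors back. ERRFI1 (MIG6) binds the kinase domain and blocks it, CBL is a ubiquitin ligase that sends activated EGFR to degradation, LRIG1 is a membrane protein that favors receptor loss, and RNF41 (NRDP1) is the ubiquitin ligase that removes ERBB3.

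The study used these arrays to find genes expressed at higher levels in HER2-positive cells that grow in lapatinib, and NF-κB targets among them. Lapatinib is a drug that blocks the kinases of EGFR and HER2. Parental SkBr3 and BT474 cells, labelled as given vehicle, and 1 resistant clone of each line, labelled as given lapatinib, were profiled with 1 array per group, 4 arrays in all. All cells were grown in the same DMEM/F12 medium, and the clones had been selected with rising lapatinib up to 1 μM. Resistance and the presence of the drug therefore cannot be told apart, and each line is represented by a single clone. The clone numbers in the labels and in the text of the study do not match, so that no clone number is used here. The SkBr3/Lap array lay on a slide of its own and the other 3 shared a slide, so that slide and clone cannot be told apart for SkBr3/Lap.

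The arrays carried 43376 spots, with the 75th percentile of the probe signals between 1115 and 2074 and between 66.6% and 74.0% of the probes marked by the scanner software as well above background. No spot was saturated. A log2 level below is the log2 of the signal minus that of the array's 75th percentile, and a log2 fold change is the difference of 2 such levels. The error given with ± is the scanner software's own error estimate. It covers the measurement on 1 array and not the spread between cultures. As each group had 1 array, replicates could not check any fold change, and a gene is counted as changed where the change was at least 2-fold, with no test. The luminal markers KRT8, KRT18, KRT19, EPCAM and MUC1 were well above background on all 4 arrays. The epithelial cadherin gene CDH1 was so in both BT474 samples and in neither SkBr3 sample. The estrogen and progesterone receptor genes ESR1 and PGR were well above background in both BT474 samples, and neither was in parental SkBr3 cells. In SkBr3/Lap, ESR1 alone was, with a signal of 31.6. Of the 4 fibroblast, 5 blood cell and 3 endothelial markers with a probe, 0 to 1, 3 and 1 to 3 were well above background on an array. Among the blood markers, CD3E, CD14 and CD68 were so on all 4 arrays, and PTPRC and HBB on none. The summed signals of the 6 luminal markers were 359 to 595 times the array's 75th percentile. Those of the endothelial markers were 0.162 times in SkBr3, 0.673 times in its clone, 0.781 times in BT474 and 0.391 times in its clone. The fibroblast sums were 0.00988 to 0.176 times and the blood cell sums 0.124 to 0.506 times, both highest in SkBr3/Lap. The part of other cell types in the changes below was not tested.

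No probe sequences were used here. The promoter sequences of EGFR and ERRFI1, the genes that were higher together in SkBr3/Lap, and of ERBB2, which was lower there, are shown for context, as the 250 bases before an annotated gene start in RefSeq (GRCh38.p14), 5′ to 3′ on the gene's strand. Capitals mark matches on either strand to a GC box (GGGCGG), the AP-1 motif (TGANTCA), the FOXO motif (GTAAACA) or the NF-κB motif.
EGFR, chr7:55018767-55019016, plus strand: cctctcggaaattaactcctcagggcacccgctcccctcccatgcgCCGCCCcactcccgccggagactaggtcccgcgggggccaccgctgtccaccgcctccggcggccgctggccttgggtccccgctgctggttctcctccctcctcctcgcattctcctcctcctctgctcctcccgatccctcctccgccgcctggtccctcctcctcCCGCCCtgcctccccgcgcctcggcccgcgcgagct
ERRFI1, chr1:8026310-8026559, minus strand: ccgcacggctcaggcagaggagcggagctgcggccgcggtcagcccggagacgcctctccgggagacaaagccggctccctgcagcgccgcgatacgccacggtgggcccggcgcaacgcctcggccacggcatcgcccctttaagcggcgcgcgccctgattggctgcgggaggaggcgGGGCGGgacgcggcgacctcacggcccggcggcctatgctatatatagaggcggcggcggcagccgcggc
ERBB2, chr17:39687844-39688093, plus strand: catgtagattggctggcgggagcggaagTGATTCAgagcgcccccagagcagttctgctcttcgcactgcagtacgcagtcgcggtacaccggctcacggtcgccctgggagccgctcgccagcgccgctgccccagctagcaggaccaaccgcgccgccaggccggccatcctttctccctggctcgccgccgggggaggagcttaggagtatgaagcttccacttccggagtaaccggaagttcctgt
The EGFR window held 2 GC boxes, whose first bases lay 204 and 36 bases before the start, and had a GC content of 73.6%. The ERRFI1 window held 1 GC box at 70 bases and had a GC content of 75.2%, whereas the median of the 35116 promoters was 58.0%. The ERBB2 window held 1 AP-1 match at 222 bases. A second EGFR start, not shown, had 2 AP-1 matches, 0 GC boxes and a GC content of 38.8% in its window. A GC box was found in 42.6% of all promoters, the AP-1 motif in 6.57%, the FOXO motif in 2.98% and the NF-κB motif in 9.96%. These letters describe the windows, and binding was not measured. The table of promoters gave entries for EGFR, ERBB2, ERBB4, ERRFI1, LRIG1 and RNF41, with 2 starts for EGFR, 4 for LRIG1 and 2 for RNF41.

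**Figure D1:**
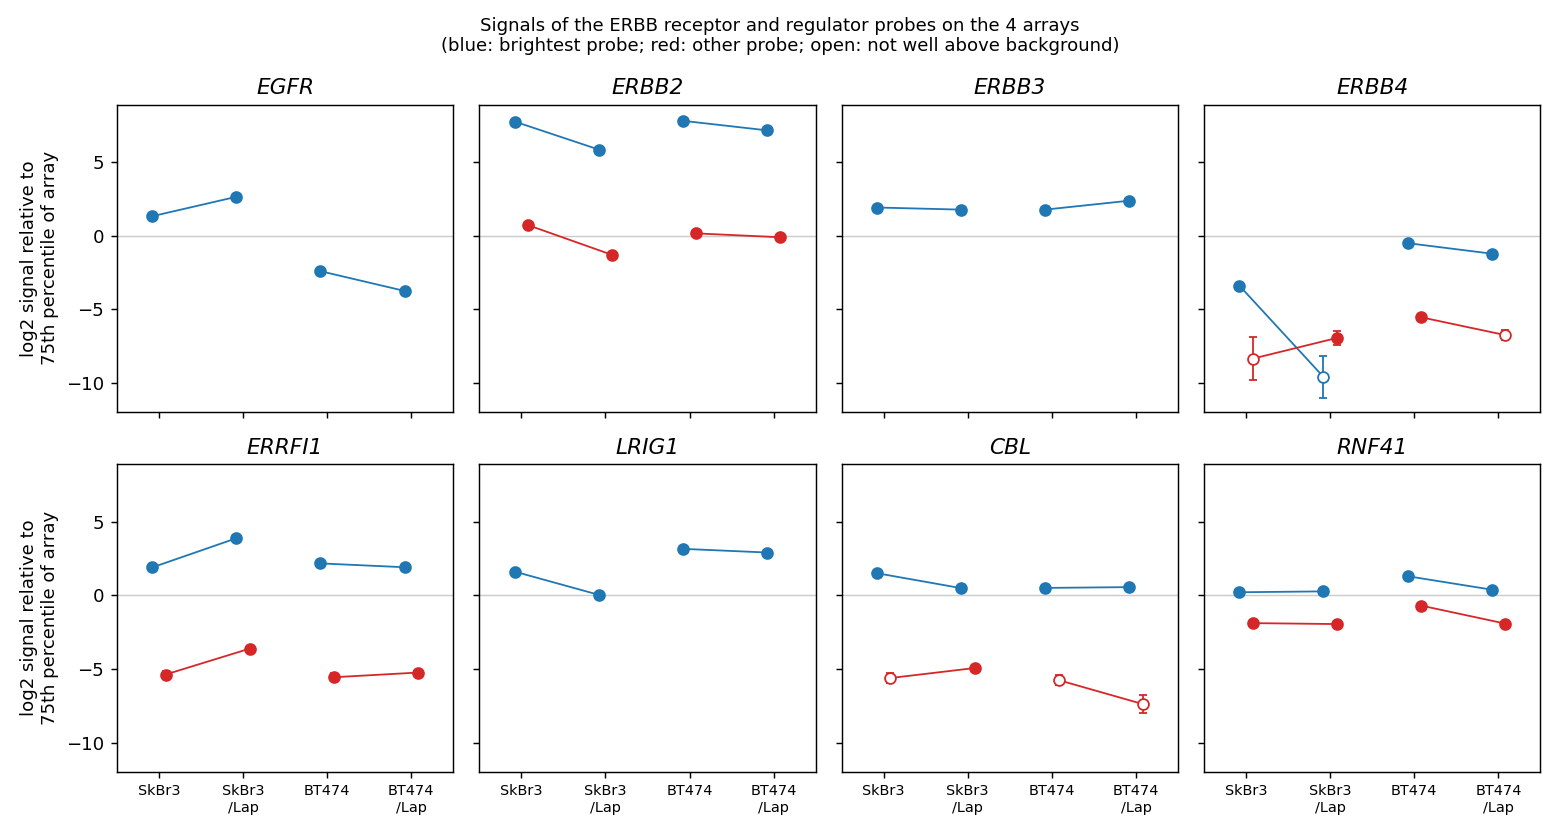
Log2 signal relative to the array's 75th percentile (vertical axis) for the 8 genes on the 4 arrays, with the brightest probe in blue, the other probe in red, bars for the software error estimate and open circles for signals not well above background. EGFR was high in SkBr3 and low in BT474 and moved apart in the clones, ERRFI1 stood out in SkBr3/Lap, and ERBB2, LRIG1 and ERBB4 dropped there.

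EGFR, the receptor that lapatinib inhibits along with HER2, had a signal of 2767 in parental SkBr3 cells and of 12836 in the clone. The BT474 signal was 217, and that of its clone 124. The SkBr3 samples lay far above the BT474 samples, and the clones lay further apart than their parents. SkBr3/Lap was 2.49-fold higher than SkBr3 (log2 fold change 1.32 ± 0.20), and BT474/Lap was 2.53-fold lower than BT474 (-1.34 ± 0.21). In all, 338 of the 12159 genes (2.78%) changed at least 2-fold in opposite directions in the clones, as EGFR did. The EGFR probe was spotted 10 times on each array. Its spots ranged from 2588 to 2914 in SkBr3 and from 12400 to 13241 in SkBr3/Lap. In BT474 they ranged from 204 to 238 and in BT474/Lap from 113 to 171. On the log2 level scale the spots of no 2 arrays overlapped, and the SD among the spots of an array was 0.04 to 0.17. The order of the levels was SkBr3/Lap, SkBr3, BT474 and BT474/Lap, and each neighbor differed by more than 2 times the software error. Between the clones the log2 levels differed by 6.39, or 83.7-fold.

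**Figure D2:**
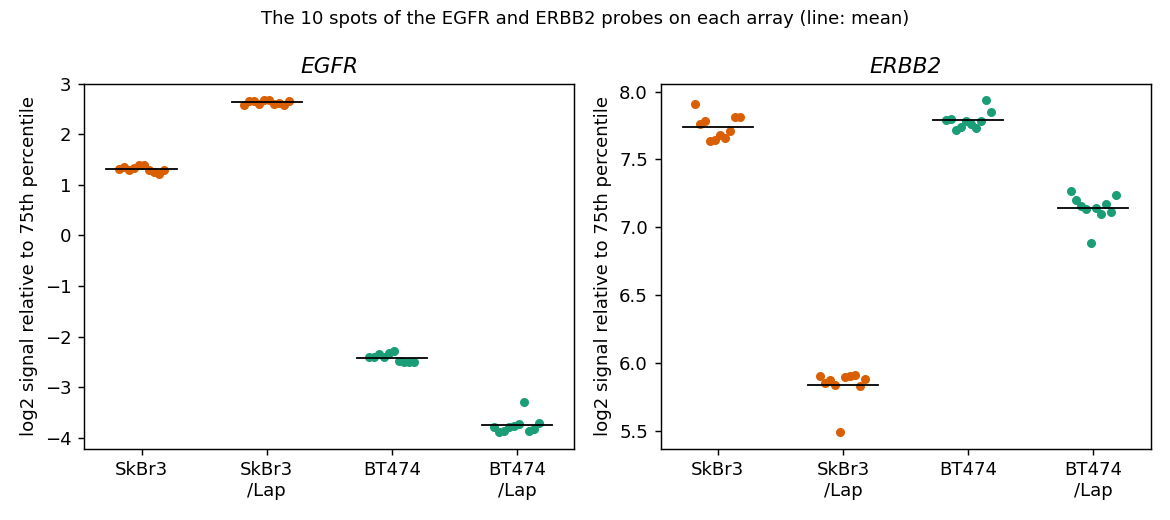
Log2 signal relative to the 75th percentile (vertical axis) of the 10 spots of the EGFR and ERBB2 probes on each array, with the mean as a line. The EGFR spots form 4 separate groups, whereas for ERBB2 the spots of both parental arrays overlap and those of SkBr3/Lap lie below all others.

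ERBB2 had a signal of 238524 in SkBr3 and 118706 in SkBr3/Lap. In BT474 it was 256346 and in BT474/Lap 237327. On this probe the parental samples were alike, and SkBr3/Lap was the lowest of the 4. SkBr3/Lap was 3.74-fold lower than SkBr3 (log2 fold change -1.90 ± 0.20), and BT474/Lap 1.57-fold lower than BT474 (-0.65 ± 0.20). All 10 spots on every array were read from the low-gain scan and scaled up by the software. The other, much dimmer ERBB2 probe was read without that step and went from 1823 in SkBr3 to 835 in its clone (log2 fold change -2.02). From BT474 to its clone it went from 1283 to 1552 (-0.26). On this dimmer probe parental SkBr3 lay 1.48-fold above parental BT474 (log2 difference 0.56). Both probes thus gave a fall of about the same size in SkBr3/Lap, and neither passed 2-fold in BT474/Lap. With quantile normalization the brighter probe's value in BT474/Lap was -0.16, and -0.17 when normexp background correction preceded it. Both values were smaller than the software error. Even before scaling, the brighter probe's signal in SkBr3/Lap was 0.498 times that in SkBr3.

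The genes next to ERBB2 on 17q12 are amplified with it in many tumors. In SkBr3/Lap the 7 neighbors had a median log2 fold change of -0.66, against -0.06 over all genes. There, PNMT (-4.47) and GRB7 (-1.19), the gene of an adaptor that binds HER2, were at least 2-fold lower, while TCAP (-0.77), PGAP3 (-0.66), MIEN1 (-0.29) and STARD3 (0.11) changed less than 2-fold (values are log2 fold changes). PNMT was dim in SkBr3/Lap, at a signal of 31.0. IKZF3, not well above background in SkBr3, was the 1 neighbor counted as higher (2.76), and with that limit was at least 1.79-fold higher. In BT474/Lap, 0 of the 7 neighbors passed 2-fold, and their median was -0.06. Over all genes, 14.1% were at least 2-fold higher and 13.0% lower in SkBr3/Lap, and 14.3% passed 2-fold in BT474/Lap.

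ERBB3, the partner of HER2, gave a signal of 4173 in SkBr3 and 7030 in its clone, and of 3927 in BT474 and 8667 in its clone. Its log2 levels were close, at 1.90, 1.76, 1.76 and 2.37 in the same order, and only BT474/Lap stood above the others by more than 2 times the software error. The log2 fold change was -0.14 ± 0.20 in SkBr3/Lap, with the opposite sign (0.01) when the arrays were scaled by their median. In BT474/Lap it was 0.61 ± 0.20, or 1.52-fold higher.

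ERBB4, the other neuregulin receptor, had a signal of 106 in SkBr3 and 812 in BT474. In SkBr3/Lap it was 2.69 and not well above background, and in BT474/Lap it was 717. Both BT474 samples lay above both SkBr3 samples. With 13.3, the lowest signal on the SkBr3/Lap array that the software placed well above background, as the limit, ERBB4 was at least 14.8-fold lower in SkBr3/Lap than in SkBr3. This limit depends on the processing, as normexp background correction with quantile normalization gave a log2 fold change of only -1.77. In BT474/Lap the log2 fold change was -0.72 ± 0.20. The other ERBB4 probe stayed between 3.41 and 24.8 on all arrays, below the signal limit of 100, and was well above background only in SkBr3/Lap and BT474. In SkBr3/Lap its signal of 16.8 was higher than the 3.41 in SkBr3, opposite to the brighter probe, and no fold change is given.

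**Figure D3:**
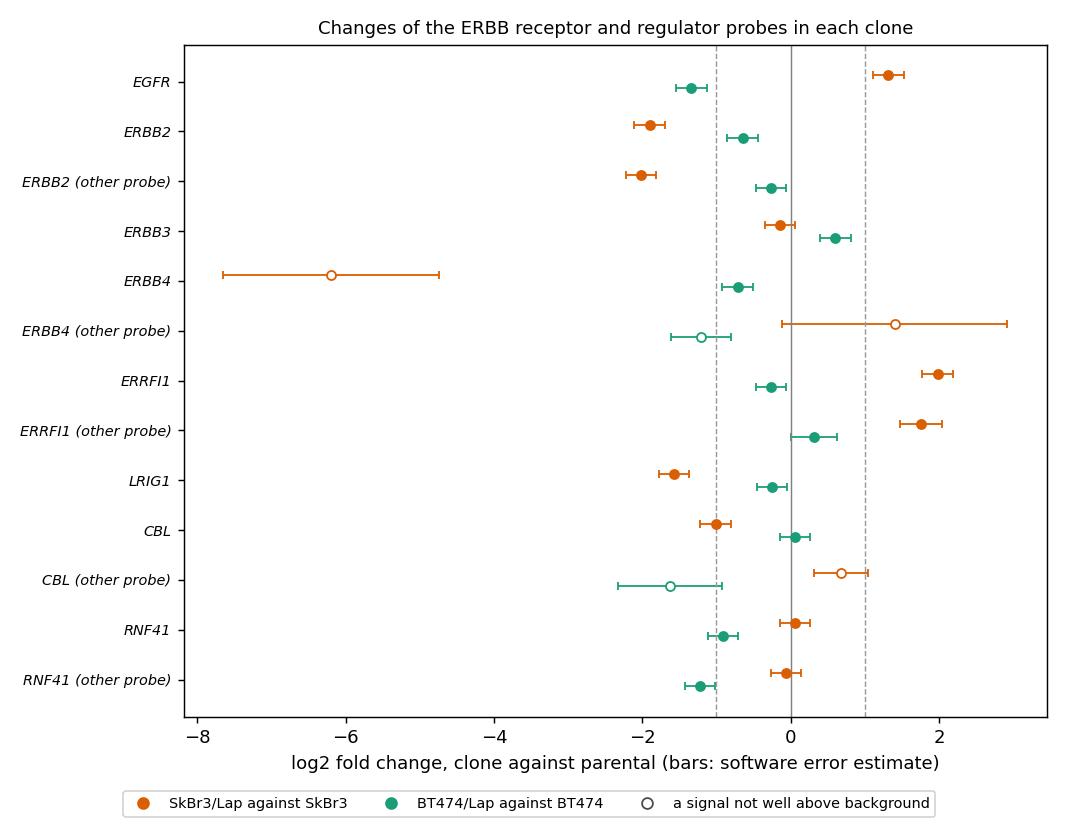
Log2 fold change of each clone against its parental cells (horizontal axis) for all 13 probes, with the software error estimate as bars, dashed lines at 2-fold and open circles where a signal was not well above background. EGFR lies on opposite sides in the clones, and for the brightest probes other than that of ERBB4, whose value in SkBr3/Lap is only a limit, the SkBr3/Lap values lie between -1.90 and 1.98 and the BT474/Lap values between -1.34 and 0.61.

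Among the 4 negative regulators, ERRFI1 changed most in SkBr3/Lap and RNF41 in BT474/Lap. The ERRFI1 signal was 4120 in SkBr3 and 30253 in its clone, and 5181 in BT474 and 6274 in its clone. SkBr3/Lap stood above the other 3 samples, which lay within 2 times the software error of each other from one to the next. In SkBr3/Lap, ERRFI1 stood 3.95-fold above the parental level (1.98 ± 0.20 as log2 fold change), and in BT474/Lap the value was -0.26 ± 0.20. The other ERRFI1 probe was much dimmer (24.5 to 168) and gave 1.76 ± 0.28 and 0.32 ± 0.31. The rise in SkBr3/Lap was therefore seen with both probes, and in BT474/Lap the probes differed in sign.

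LRIG1 had a signal of 3392 in SkBr3 and 2117 in its clone, and of 10276 in BT474 and 12545 in its clone. Both BT474 samples lay above both SkBr3 samples. SkBr3/Lap was 2.98-fold lower than SkBr3, at a log2 fold change of -1.58 ± 0.20, and for BT474/Lap the value was -0.25 ± 0.20.

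The CBL signal was 3142 in SkBr3 and 2898 in its clone, and 1634 in BT474 and 2463 in its clone. On the log2 level scale SkBr3 stood above the other 3 samples, which were alike within the software error. SkBr3/Lap had a log2 fold change of -1.01 ± 0.20, just past 2-fold, although the signal itself was 0.922 times that in SkBr3 before scaling. It was -0.85 when the arrays were scaled by their median, so that the call was lost. In BT474/Lap it was 0.05 ± 0.20. The other CBL probe was dim, below the signal limit, and well above background in SkBr3/Lap only, where it was at least 1.60-fold higher than in SkBr3. The probes of CBL thus disagreed in SkBr3/Lap.

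The RNF41 signal was 1283 in SkBr3 and 2486 in its clone, and 2839 in BT474 and 2185 in its clone. BT474 had the highest log2 level and the other 3 samples lay within the software error of each other. SkBr3/Lap differed from SkBr3 by a log2 fold change of 0.06 ± 0.20, and BT474/Lap was 1.89-fold lower than BT474 (-0.91 ± 0.20). The other RNF41 probe went from 713 in BT474 to 443 in its clone (log2 fold change -1.22 ± 0.20) and gave -0.06 in SkBr3/Lap. RNF41 and ERBB3, the ligase and its receptor, lie on the same chromosome, 12, with 8 protein-coding genes between them in the RefSeq annotation. The log2 fold change of ERBB3 minus that of RNF41 was 1.52 in BT474/Lap and -0.20 in SkBr3/Lap. The signs were opposite in both clones, but in SkBr3/Lap both values lay within the software error.

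The counts were set against all genes tested. In SkBr3/Lap, 2 of the 8 passed 2-fold upward, as did 14.1% of the 12159 genes, and 4 passed it downward, as did 13.0%. The median log2 fold change was -0.58 over the 8 genes and -0.06 over all genes. In BT474/Lap, 0 of the 8 were at least 2-fold higher against 9.10% of all genes, and 1 was at least 2-fold lower against 5.16%. The median was -0.45 over the 8 genes and -0.09 over all genes. By role, the changes in SkBr3/Lap comprised 1 receptor higher and 2 lower, and 1 regulator higher and 2 lower. No test was made of these counts.

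In a ratio of 2 genes on the same array, a scaling by 1 factor per array cancels. In SkBr3/Lap the ratio of the EGFR signal to the ERBB2 signal was 9.32 times that in SkBr3, or 7.31 times after quantile normalization. In BT474/Lap it was 0.618 times that in BT474, or 0.368 times after quantile normalization. The ratio of EGFR to its inhibitor ERRFI1 was 0.632 times the parental value in SkBr3/Lap and 0.473 times in BT474/Lap, as ERRFI1 rose more than EGFR in SkBr3/Lap and EGFR fell more in BT474/Lap. The ratio of ERBB2 to ERBB3 was 0.295 times the parental value in SkBr3/Lap and 0.419 times in BT474/Lap. After quantile normalization these values were 0.371 and 0.537. ERBB2 was thus lower relative to ERBB3 in both clones. The ratio of ERRFI1 to LRIG1 was 11.8 times the parental value in SkBr3/Lap and 0.992 times in BT474/Lap.

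**Figure D4:**
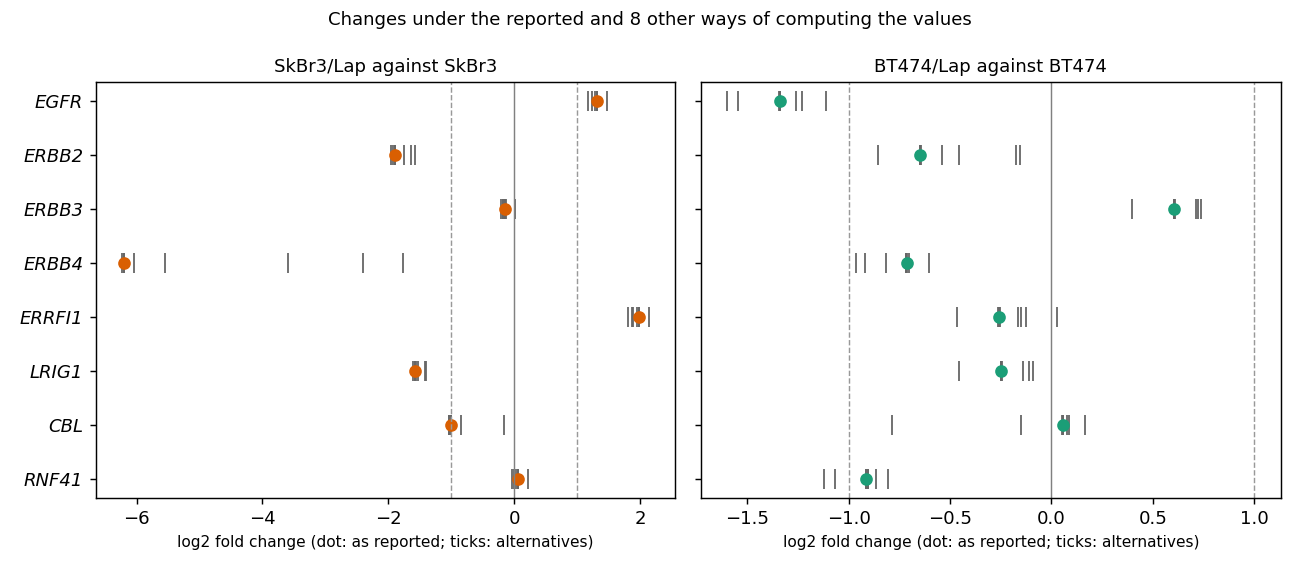
Log2 fold change (horizontal axis) of the 8 genes in each clone as reported (dots) and under 8 other ways of computing the values (ticks), with dashed lines at 2-fold. EGFR, ERBB2, ERBB4, ERRFI1 and LRIG1 in SkBr3/Lap and EGFR in BT474/Lap stay past 2-fold throughout, while CBL and RNF41 cross it.

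The parental lines already differed in these genes. EGFR was 13.2-fold higher in SkBr3 than in BT474, a log2 difference of 3.73 ± 0.21. ERBB4 was 7.36-fold lower in SkBr3, LRIG1 2.91-fold lower and RNF41 2.13-fold lower. CBL lay just under the criterion, with a log2 difference of 0.998. ERBB2, ERBB3 and ERRFI1 differed by -0.05, 0.14 and -0.27 on the log2 scale. Among all genes, 18.8% were 2-fold or more above BT474 in SkBr3 and 19.4% as far below, 38.2% together, against 1 and 3 of the 8. The parental SkBr3 and BT474 arrays also enter the comparisons with the clones.

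Resistance was also tested with each cell line as 1 replicate. With limma, a cell line block and Benjamini-Hochberg adjustment over 25927 probes, the adjusted p was 1.00 for each of the 8 genes. For all probes 0.00% passed an adjusted p of 0.05 and 3.47% had an unadjusted p below 0.05, as 0 of the 8 genes did. The lowest unadjusted p among the 8, with 1 residual degree of freedom, was 0.0848 in limma for ERBB2. The mean log2 fold change of ERBB2 over both lines was -1.28. It was lower in both clones, though the BT474/Lap value was only -0.16 with quantile normalization. For EGFR the mean was -0.01, as the opposite changes canceled.

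Other genes of the pathway were counted from lists. Over all genes tested, 14.1% were at least 2-fold higher and 13.0% lower in SkBr3/Lap. In BT474/Lap these shares were 9.10% and 5.16%, and the list counts were not tested against them. Of 11 ERBB ligand genes, 6 had a probe that passed the signal limit and were counted. In SkBr3/Lap, HBEGF and EPGN, the genes of the ligands HB-EGF and epigen, were 9.25-fold and 9.04-fold higher, and BTC, EGF and AREG were 6.64-fold, 5.35-fold and 4.46-fold lower. In BT474/Lap, AREG and EGF were 3.37-fold and 2.52-fold lower and 0 of the 6 were at least 2-fold higher. EGF was dim there, at 46.5 in BT474 and 26.8 in its clone. HBEGF and EPGN were also dim in SkBr3, at 25.1 and 21.3, and BTC in SkBr3/Lap, at 36.4. Fold changes that rest on such dim signals are uncertain in size. AREG encodes amphiregulin, an EGFR ligand.

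A further 30 regulators of ERBB receptor turnover and activity all passed the signal limit. In SkBr3/Lap 5 of the 30 (16.7%) were at least 2-fold higher and 1 (3.33%) lower, against 14.1% and 13.0% of all genes. In BT474/Lap 2 (6.67%) were higher and 5 (16.7%) lower, against 9.10% and 5.16%. Their median log2 fold changes were 0.36 and -0.04. In SkBr3/Lap the largest rises were those of SOCS3 (5.44-fold), SPRY2 (3.41-fold), SOCS5 (2.84-fold) and NEDD4 (2.57-fold). SOCS3 and SOCS5 encode cytokine signaling inhibitors and SPRY2 a Sprouty inhibitor of the ERK pathway. SPRY4, of the same family, was lower in both clones (log2 fold changes -1.93 and -1.90). In BT474/Lap, SPRED1 (-1.89), SPRY1 (-1.87) and DOK1 (-1.31) were also lower, and SOCS3 (1.29) and SH3KBP1 (1.04), the gene of a CBL partner in receptor uptake, were higher. CBLB and CBLC, the relatives of CBL, and LRIG2 and LRIG3, those of LRIG1, passed 2-fold in neither clone, with log2 fold changes of -0.30 to 0.83. CBLC was not well above background in either BT474 sample and has no value there.

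Of 33 adaptors and signal transducers, 30 passed the signal limit, and the median of their log2 fold changes was close to 0 in both (-0.02 in SkBr3/Lap, -0.07 in the other clone). In SkBr3/Lap 6 (20%) were at least 2-fold higher and 2 (6.67%) lower, against 14.1% and 13.0% of all genes. PIK3CD, a catalytic PI3K subunit, rose from 192 to 7280 (log2 fold change 4.35), and the docking protein gene GAB2 from 507 to 10650 (11.3-fold). STAT5A (2.12) and GAB1 (1.67) followed, and GRB7 (-1.19) and PIK3R2 (-1.04) were lower. The SkBr3 signals of STAT5A and GAB1 were dim, at 38.7 and 58.2. In BT474/Lap, GAB2 (1.38) was the only one at least 2-fold higher and 0 were lower, against 9.10% and 5.16% of all genes. Of the core kinase genes, AKT1, AKT2 and MAPK3 lay between -0.67 and 0.39 in log2 fold change in both clones. Among 7 reference genes, GUSB was 2-fold or more lower in SkBr3/Lap (-1.12) and 0 passed in BT474/Lap, with medians of -0.45 and -0.03.

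**Figure D5:**
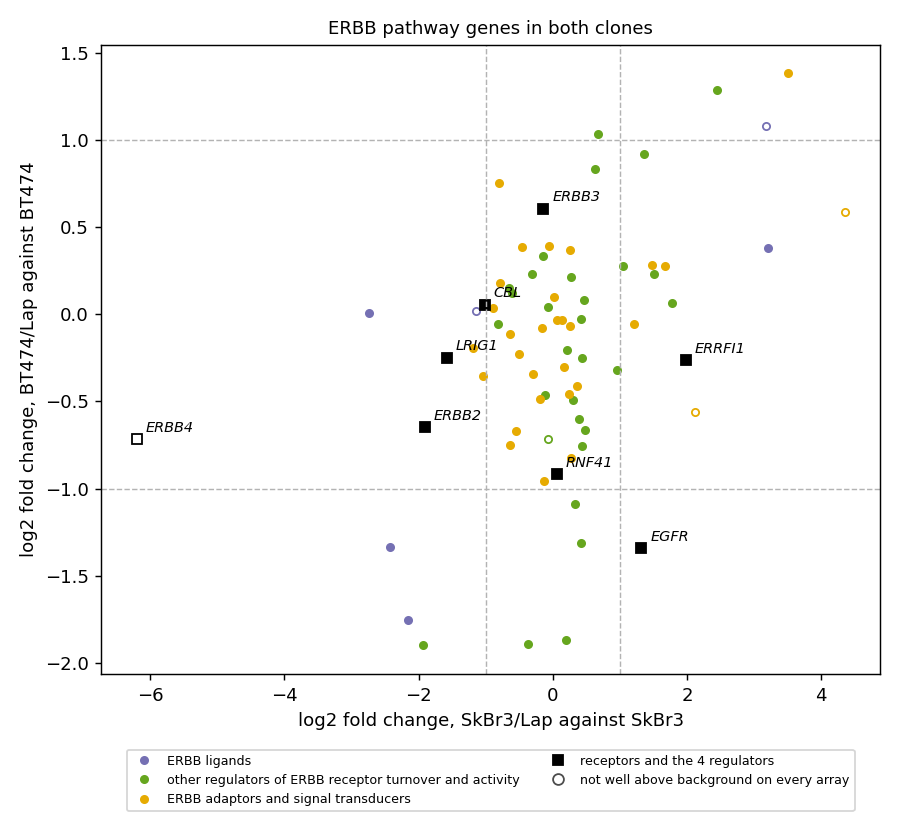
Log2 fold change in SkBr3/Lap (horizontal axis) against that in BT474/Lap (vertical axis) for the receptors and the 4 regulators (black squares, named) and for the other pathway genes by list, with dashed lines at 2-fold and open symbols where a gene was not well above background on every array. EGFR lies in the corner for higher in SkBr3/Lap and lower in BT474/Lap, and the adaptors and signal transducers spread wider in SkBr3/Lap than in BT474/Lap.

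Genes with the most similar profile were found as those with the smallest root mean square difference in log2 level over the 4 arrays, after each gene was centered on its mean, among 10932 genes well above background on all arrays. For EGFR these were KRT23, F12 and TYMP, at 0.28 to 0.40, which was farther than for the others. For ERBB2 they were CERS6, GPD1L and KIF1B, at 0.04 to 0.07, and for ERBB3 TMEM41B, BRICD5 and PKD1, at 0.02 to 0.04. For ERRFI1 they were TNIP2, TRIP13 and ZNF641 (0.07 to 0.12). For LRIG1 they were the zinc finger genes ZNF596, ZNF709 and ZNF821 (0.06 to 0.10), for CBL ZSWIM1, DSTN and MZT1 (0.02 to 0.03) and for RNF41 ESYT1, LGR6 and ATF4 (0.04 to 0.05).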

How the data were processed

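Gene expression was measured on Agilent Human Whole Genome 4 × 44 K arrays with a single Cy3 channel, with 1 array per group. The intensity of a spot that the authors deposited is the processed signal of Feature Extraction 10.1.1.1, with background and spatial trend removed, beside which its files give an error estimate and flags. A deposited table of log2 values was compared with these signals. Differences between arrays deviated by a median of up to 0.0014 and by 0.62 for the farthest probe. How the table was centered is not given in the sources used here. A probe's value was the mean log2 signal of its spots, from which the 75th percentile of the array, over 41000 non-control probes, was subtracted. A gene was represented by its brightest probe among those with a signal of at least 100 on at least 1 array. A probe was well above background when 50% or more of its spots carried that mark. A signal not so marked was raised to the lowest signal that was, and the fold change is then a limit. Accessions were matched to RefSeq (GRCh38.p14) for 23680 probes. The arrays were designed on an older build, so coordinates are given for RefSeq promoters alone and not for probes.

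The test across lines was limma 3.58.1 in R 4.3.3 (1 residual degree of freedom). The scripts were tested on simulated data. The alternatives were other scalings, quantile normalization, normexp on median pixel intensities (offset 50), the deposited log2 table, 16 added to the signal, outlier spots left out, all probes of a gene averaged, other filters and a threshold of 3-fold, and for limma no block, a slide block, no filter or quantile normalization. The genes named were the 8, and from the lists up to 4 per clone and direction with the largest changes of at least 2-fold. Others were named after their values were seen: CBLB, CBLC, LRIG2, LRIG3, AKT1, AKT2, MAPK3, PGAP3, TCAP, MIEN1, STARD3 and IKZF3. The genes and lists were chosen with earlier results of these data known. Promoter motifs were searched on both strands. Python 3.11.15, numpy 2.4.6 and pandas 2.3.3 were used.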

Additional observations from a re-analysis of the deposited data

Results flagged for a closer look

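For 3 genes the values of the clones had opposite signs with a change of at least 2-fold in at least 1 of them, and the difference between the clones was not tested. Of these, EGFR alone passed 2-fold in both. The log2 fold change of EGFR was 1.32 for SkBr3/Lap against -1.34 for BT474/Lap. The log2 fold change of ERRFI1 was 1.98 for SkBr3/Lap against -0.26 for BT474/Lap. For CBL the values were -1.01 and 0.05. The BT474/Lap values of ERRFI1 and CBL changed sign under other ways of computing them.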

How the results depend on the processing

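Of 192 single log2 fold changes recomputed under 8 alternatives, 187 stayed on the same side of 2-fold with no change of sign among those past it, 2 dropped below 2-fold and 3 rose past it. The 2 were CBL in SkBr3/Lap, at -0.85 with scaling by the median and -0.17 with the mean over its probes. The 3 were RNF41 in BT474/Lap, at -1.12 and -1.07 under the same settings, and CBL in SkBr3 against BT474, at 1.04 with scaling by the median. With either setting, 2 genes in place of 1 passed 2-fold in BT474/Lap, both lower. With scaling by the median, 2 in place of 1 were higher in SkBr3 than in BT474, an alternative added after the data were seen, as were the others for that comparison. At 3-fold, 3 of the 8 genes in place of 6 passed in SkBr3/Lap, 1 higher and 2 lower, 0 in place of 1 passed in BT474/Lap, lower ones included, and 2 in place of 4 differed between the parental lines, with 1 in place of 3 lower in SkBr3. Requiring a probe well above background on all 4 arrays left ERBB4 out. Then 5 genes in place of 6 passed in SkBr3/Lap, with 3 in place of 4 lower. The counts in BT474/Lap stayed the same, as did those of both clones without the signal filter. Limma passed 0 of the 8 genes under every alternative run, with adjusted p between 0.694 and 1.00.

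Scaling by the median shifted the median log2 fold change of all kept probes by 0.16 in SkBr3/Lap and by -0.21 in BT474/Lap, and in BT474/Lap the higher genes then made up 47.4% of the changed genes in place of 63.8%. Changes under 2-fold that switched sign were ERBB3 in SkBr3/Lap (0.01 with the median), RNF41 in SkBr3/Lap (-0.04 with normexp and quantile normalization, and just below 0 with the mean over its probes), CBL in BT474/Lap (-0.15 with the median and -0.79 with the mean over its probes) and ERRFI1 in BT474/Lap (0.03 with the mean over its probes). Between the parental lines ERBB2 switched sign as well, from -0.05 to 0.26 with the mean over its probes. The value for ERBB4 in SkBr3/Lap ran from -6.23 to -1.77, where its signal was not well above background. Leaving out a cell line from limma gave no residual degrees of freedom and was not run. The cell line block in limma pairs each clone with its parent. By replicate number, no paired analysis was possible because every group holds 1 array, numbered 1.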
